A study of Homo sapiens with 6 samples.

Results

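The 36 genes described here encode the core machinery of macroautophagy, and they were measured in the human monocytic leukaemia line THP-1 after exposure to the chemokine CXCL10. They were taken by symbol from the count tables, in which 36 of 36 were found among 57316 gene names. All the cells had first received the phorbol ester PMA at 100 ng/ml for 48 h, which gives THP-1 monocytes macrophage features. In the CXCL10 group, recombinant human CXCL10 at 100 ng/ml was then present for 24 h, and the control group was given control solution for the same 24 h. Each group holds 3 libraries of polyadenylated RNA, numbered 1, 3 and 4. Nothing in the labels tells whether the libraries came from separate cultures. The p-values therefore cover the spread among the 6 libraries alone, and that spread may be technical.

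Autophagy wraps cytoplasm, damaged organelles or microbes in a growing membrane that closes into an autophagosome and fuses with lysosomes. The ULK kinase complex starts the process, the class III PI3-kinase VPS34 marks the membrane with the lipid PI3P, and ATG9 vesicles and the lipid-transfer protein ATG2 supply membrane. A pair of ubiquitin-like conjugation pathways then attaches ATG8 proteins, the LC3 and GABARAP families, to the membrane, where they hold cargo receptors such as p62. In macrophages the same machinery also limits inflammasome activity and handles engulfed microbes. Transcript levels do not measure the flux of the pathway, which is set largely by protein modification and turnover.

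The data behind the values were deep and similar in size between libraries. Totals ran from 34.8 to 41.02 M reads. Macrophage identity was checked on 10 monocyte and macrophage markers: CSF1R had 1461 to 1601 CPM (read counts scaled to library size), and CD14, ITGAM, CD163, SPI1, CD33 and TYROBP had 46.9 CPM or more in every library. MRC1 had 0.953 to 2.09 CPM with CXCL10 and 1.29 to 1.43 CPM in controls, and CD68 had 0 to 5 reads in every library, with 85.6% of its exon length inside exons of other genes. LYZ had 15.2 to 18.0 CPM with CXCL10 and 6.13 to 10.5 CPM in controls, without overlap. Its log2 fold change was 0.85 (unadjusted p = 0.000991, adjusted p = 0.683 by edgeR), and 0.64 without control replicate 4. ITGAM and CD163 were also higher without overlap, at 0.32 and 0.29, and at 0.24 and 0.31 without that library. TYROBP was lower, with overlap, at -0.56 (unadjusted p = 0.0149, adjusted p = 0.683 by edgeR), and at -0.25 without that library. Of 4 epithelial markers EPCAM and KRT5 were at 0 reads in all libraries, and of the T and NK cell markers CD2 was at 0, although GNLY, a granule gene of those cells, had 132 to 159.6 CPM with CXCL10 and 159 to 208 CPM in controls. Control replicate 4 stood apart: its log2 CPM correlated with the other 5 libraries at 0.972 to 0.977, while the others correlated among themselves at 0.984 to 0.990. Results that rest on it are given with and without it.

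The autophagy genes showed no called difference between CXCL10-treated and control cells (edgeR quasi-likelihood, Benjamini-Hochberg adjusted over 16531 genes). All 36 passed the filter on low counts, 0 of 36 had an adjusted p under 0.05, and their adjusted p-values ran from 0.683 to 0.997. The background was the same, with 0 of all genes called (0%) by edgeR, and DESeq2 and limma-voom called 0 as well. Without adjustment, p was under 0.05 by edgeR for 1181 genes, 7.14% of those tested (2.5% higher and 4.65% lower with CXCL10), by DESeq2 for 1211 and by limma-voom for 1182. Of the autophagy genes 2 of 36, or 5.56%, passed that level, BECN1 on the higher side and GABARAPL2 on the lower, which is a share near the background. In RNA from bulk cultures, fewer cells of a type and less RNA per cell cannot be told apart.

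Fitted differences were small as well as uncalled. The median log2 fold change over the 36 genes was 0.077, beside 0.023 over all genes tested, and 23 genes lay above 0 and 13 at or below it, where 54% of all genes lay above 0. The largest were 0.63 for ATG9A and -0.39 for MAP1LC3A. For 34 of the 36 genes the 95% interval stayed between -1 and 1 on the log2 scale, which holds for 74.4% of all genes, and the exceptions were ATG9A and GABARAP. Within 0.5 in either direction lay 18 of the 36 intervals, against 35.1% of those of all genes. These shares were not matched for read level, and the median SE was 0.162 for the members and 0.188 for all genes. The median absolute log2 fold change was 0.137 over the members and 0.171 over all genes. Over the 10933 genes with a log2 CPM from 1 up to that of the highest member it was 0.143, close to the members. All 3 CXCL10 libraries lay above all 3 controls for BECN1, UVRAG and GABARAPL1, and below them for GABARAPL2. Those 4 genes are 11.1% of the list, and 12.2% of all genes were separated in the same way (5.76% higher and 6.48% lower with CXCL10).

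Without control replicate 4 these counts changed in membership but stayed near the background. UVRAG was then the single autophagy gene with an unadjusted p under 0.05 (2.78% of the list), where 3.79% of all genes were, 2.2% on the higher and 1.59% on the lower side. Groups did not overlap for ATG4C, UVRAG, GABARAPL1 and BECN1 on the higher side and for ATG101 and GABARAPL2 on the lower. Those 6 genes are 16.7% of the list, beside 18.4% of all genes (9.37% higher and 9.02% lower). Above 0 lay 22 of the 36 genes, beside 53% of all genes.

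**Figure D1:**
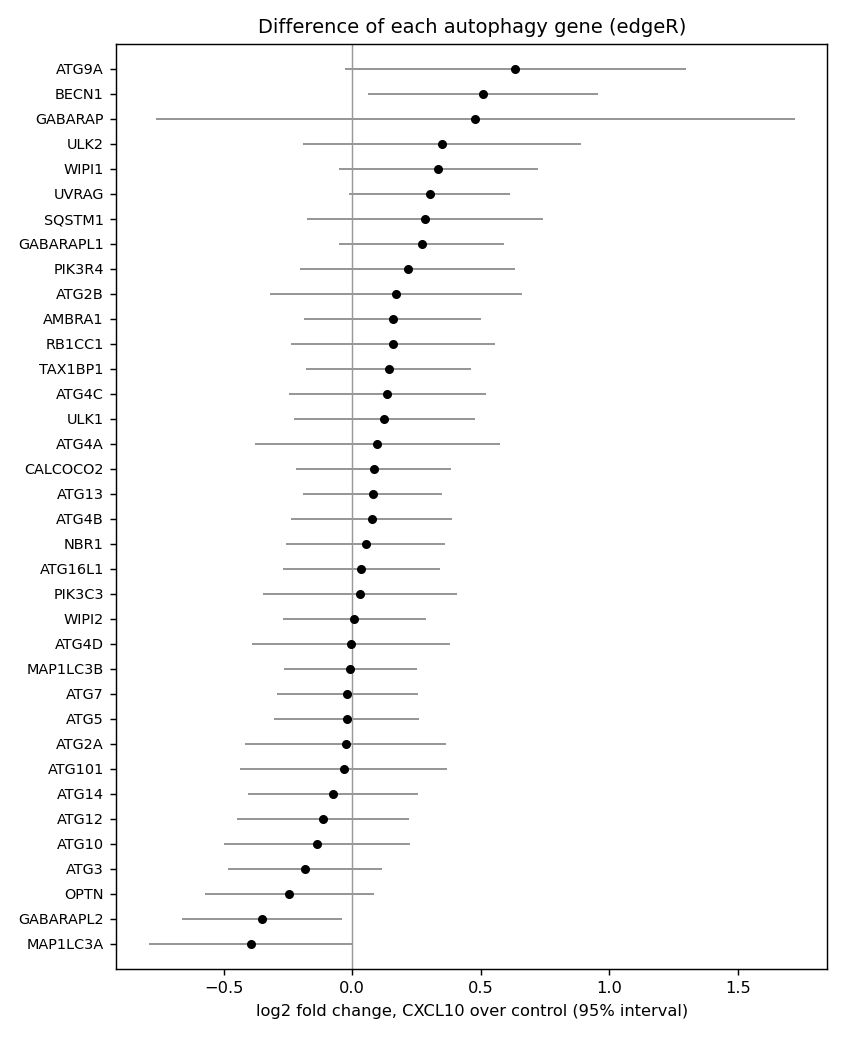
Log2 fold change, CXCL10 over control, of each of the 36 autophagy genes from edgeR (point) with its 95% interval (line), on a linear axis. The intervals of BECN1 and GABARAPL2 leave out 0 before adjustment, GABARAP has the widest interval, and 0 of 36 genes passed after adjustment over all genes.

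Transcripts of ATG8 proteins held both the highest and the lowest counted levels per length of the list, the lowest being GABARAP, which lost reads to overlapping genes. ATG8 proteins are small ubiquitin-like proteins that are joined to the lipid phosphatidylethanolamine on autophagosome membranes, and the 5 members measured fall into the LC3 and the GABARAP subfamilies. Among the members, GABARAP itself was almost absent from the counts, with 4 to 22 reads per library. Its coding sequence is printed beside that of GABARAPL1, its closest relative among the members, because the comparison bears on whether the paralogs could have shared reads. Both are from the GENCODE 29 transcripts and show the first 300 bases from the start codon, and capitals mark the longest stretch that is identical in both.

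GABARAP: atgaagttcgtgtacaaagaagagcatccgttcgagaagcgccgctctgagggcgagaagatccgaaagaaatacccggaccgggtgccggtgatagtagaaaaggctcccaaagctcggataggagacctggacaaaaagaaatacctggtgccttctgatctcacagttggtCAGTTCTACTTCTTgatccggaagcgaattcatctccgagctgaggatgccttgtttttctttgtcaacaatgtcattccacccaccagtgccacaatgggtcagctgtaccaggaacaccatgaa

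GABARAPL1: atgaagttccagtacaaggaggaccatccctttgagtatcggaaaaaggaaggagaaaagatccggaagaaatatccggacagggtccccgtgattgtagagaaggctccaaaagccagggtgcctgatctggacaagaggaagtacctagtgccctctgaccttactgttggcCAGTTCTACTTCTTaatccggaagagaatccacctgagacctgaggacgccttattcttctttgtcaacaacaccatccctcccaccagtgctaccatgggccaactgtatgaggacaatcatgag

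Both coding sequences have 354 bases and encode 117 residues, they are identical at 272 of 354 positions (76.8%), and the longest identical stretch has 14 bases. GABARAP and GABARAPL2 are identical at 62.4% of positions, with a longest stretch of 8 bases. GABARAP lies on chromosome 17 (7240008 to 7242449, minus strand, hg38), among overlapping genes. Of the 1634 bases of its main coding transcript 74.7% lie in exons of other annotated genes, and so does 100% of its coding sequence; the longest shared part is with AC120057.2, annotated on the same strand. That gene had 0 reads in all 6 libraries. Reads over exons of more than 1 gene were left out of the counts, so the 4 to 22 reads of GABARAP stand for a small part of its transcript. ATG9A has the same kind of neighbour, AC068946.2 on the same strand, over 38.8% of its exon length. GABARAPL2, MAP1LC3A, ULK1 and ULK2 share no exon bases with another gene.

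GABARAPL2 (chromosome 16, 75566375 to 75577881, plus strand) was the most abundant autophagy transcript per length, at 40.2 ± 7.58 CPM per kilobase of exon (mean ± SD over all 6 libraries). It measured 103, 101 and 115 CPM in CXCL10 replicates 1, 3 and 4, against 116, 127 and 163 CPM in control replicates 1, 3 and 4. The groups did not overlap, although CXCL10 replicate 4 and control replicate 1 were nearly level and control replicate 4 was well above the rest. Its log2 fold change was -0.35 ± 0.15 (SE, unadjusted p = 0.0295, adjusted p = 0.683 by edgeR), and -0.19 without control replicate 4 (unadjusted p = 0.164).

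MAP1LC3B (chromosome 16, 87383953 to 87404779, plus strand), whose product LC3B is the usual marker of autophagosomes, varied least between libraries relative to its level. CXCL10 replicates 1, 3 and 4 had 162, 148 and 162 CPM, against 151, 163 and 161 CPM in control replicates 1, 3 and 4. The groups overlapped throughout, and the log2 fold change was -0.0086 with a 95% interval from -0.27 to 0.25. MAP1LC3B2, a near copy of it, shares a stretch of 307 of its 378 coding bases and had 13 to 30 reads per library. Reads that mapped to several places were left out, and how many MAP1LC3B lost in this way was not measured.

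MAP1LC3A, a further LC3 gene (chromosome 20, 34546854 to 34560345, plus strand), had 18.5, 14.3 and 13.1 CPM in CXCL10 replicates 1, 3 and 4, against 18.9, 16.8 and 24.6 CPM in control replicates 1, 3 and 4. CXCL10 replicate 1 lay inside the control range. The log2 fold change of -0.39 ± 0.19 (SE, adjusted p = 0.694 by edgeR) was -0.22 without control replicate 4, -0.55 without CXCL10 replicate 1 (unadjusted p = 0.0148) and -0.21 with the trend over gene length removed. GABARAPL1 (chromosome 12, 10212458 to 10223128, plus strand), whose protein shares the GABARAP subfamily's role in late steps of autophagosome formation, had 21.1, 20.5 and 19.8 CPM in CXCL10 replicates 1, 3 and 4, against 18.4, 17.5 and 14.9 CPM in control replicates 1, 3 and 4. All CXCL10 libraries lay above all controls, with a log2 fold change of 0.27 ± 0.15 (SE, adjusted p = 0.716 by edgeR), and the groups stayed apart without control replicate 4, at 0.19. GABARAPL3, a near copy of GABARAPL1, matches 95.5% of its 354 coding bases, with a longest identical stretch of 67 bases. GABARAPL3 had 0 reads in every library, and 100% of its exon length lies in exons of another gene. How many reads GABARAPL1 lost through mapping to several places was not measured.

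Set against each other per length, GABARAPL2 and MAP1LC3B together made up most of the ATG8 transcripts counted. GABARAPL2 took 41.5% ± 2.59 of the summed level of the 5 genes with CXCL10 and 45.6% ± 2.88 in controls (SD, n = 3 each). MAP1LC3B took 36.7% ± 0.367 with CXCL10 and 32.2% ± 3.09 in controls, and GABARAPL1 5.94% ± 0.309 with CXCL10 and 4.33% ± 0.907 in controls. The ratio of GABARAPL2 to GABARAPL1 was 6.55, 6.67 and 7.79 in the CXCL10 libraries, against 8.50, 9.79 and 14.7 in the controls, so the groups did not overlap. That ratio was chosen after its values were seen and has no test. GABARAP took under 1% in every library, with the loss of reads described above. All these shares rest on merged exon lengths, 3010 bases for GABARAPL2, 5037 for MAP1LC3B and 1152 for MAP1LC3A. Their longest coding transcripts have 1002, 2688 and 1574 bases, and the shares would differ with those lengths.

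**Figure D2:**
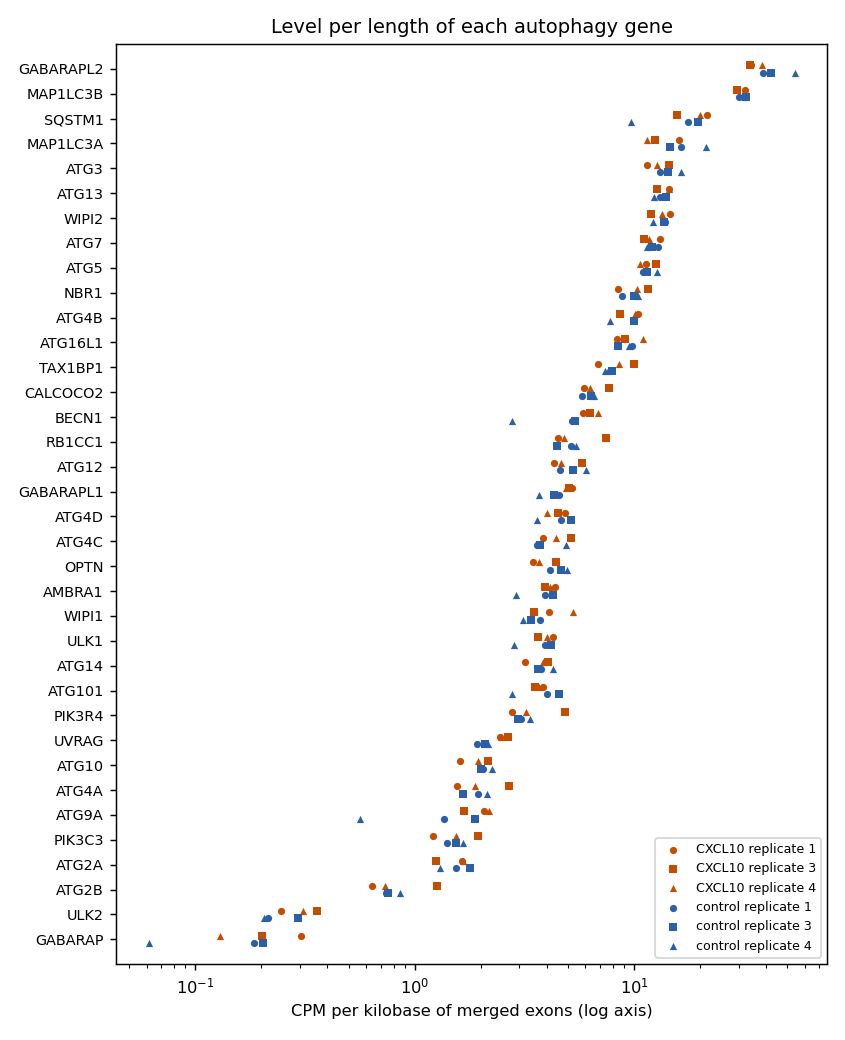
CPM per kilobase of merged exons (log axis) of the 36 autophagy genes in each library, from the highest to the lowest mean, with CXCL10 libraries in orange and controls in blue. GABARAPL2 and MAP1LC3B stand above the rest, and ULK2 and GABARAP lie lowest. The counted reads of GABARAP stand for a small part of its transcript.

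Levels per length of the other members fell off gradually. Below MAP1LC3B, at 31.3 ± 1.31 CPM per kilobase, came SQSTM1 at 17.3 ± 4.24 and MAP1LC3A at 15.4 ± 3.54. Then followed ATG3, ATG13, WIPI2, ATG7 and ATG5 between 13.7 and 11.6, and at the other end ATG2B at 0.831 ± 0.224, ULK2 at 0.271 ± 0.0592 and GABARAP. In 4 pairs of neighbours in this order, the lowest library of the first gene lay above the highest library of the second. These were GABARAPL2 above MAP1LC3B, MAP1LC3B above SQSTM1, PIK3R4 above UVRAG and ATG2B above ULK2. Lengths are those of all annotated exons of a gene merged, and the order depends on that choice. The merged length was 1152 bases for MAP1LC3A, 7535 for SQSTM1 and 6111 for ATG3. Their longest coding transcripts have 1574, 2986 and 3010 bases, so MAP1LC3A would stand lower relative to the other 2 genes by those lengths. For PIK3R4 and UVRAG the merged lengths were 5377 and 7346 bases, and the longest coding transcripts have 5015 and 4123 bases. The CPM values of PIK3R4 and UVRAG overlapped, so their separation would not hold by those transcript lengths. For GABARAP the merged length includes exon parts shared with other genes, where reads were left out.

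The ULK kinase complex, which receives nutrient signals through AMPK and mTORC1, overlapped between the groups for all 5 of its genes over the 6 libraries. Their log2 fold changes ran from -0.033 for ATG101 to 0.35 for ULK2, with adjusted p-values from 0.774 to 0.979 by edgeR. ULK1, the kinase gene that dominated its pair (chromosome 12, 131894622 to 131923150, plus strand), had 32.5, 27.9 and 30.6 CPM in CXCL10 replicates 1, 3 and 4, against 29.96, 31.8 and 21.6 CPM in control replicates 1, 3 and 4. Its paralog ULK2 had 2.43, 3.53 and 3.06 CPM with CXCL10, against 2.12, 2.91 and 2.03 CPM in controls, and ran lower per length by a factor of 10.2 to 18.3 across the 6 libraries. The groups overlapped broadly for ULK1, while for ULK2 they overlapped only in that CXCL10 replicate 1 lay below control replicate 3. On leaving out a library the log2 fold change of ULK2 ran between 0.22 without CXCL10 replicate 3 and 0.55 without control replicate 3.

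ATG13, the adaptor that holds the kinase complex together and its most abundant member, had 101, 89.4 and 101 CPM with CXCL10, against 91.5, 98.0 and 86.3 CPM in controls. ATG101, which stabilises ATG13, averaged 11.8 ± 0.491 CPM with CXCL10 and 12.1 ± 2.88 CPM in controls (SD, n = 3 each). RB1CC1, which encodes the large scaffold FIP200, had 34.2, 56.8 and 36.3 CPM with CXCL10, against 39.1, 33.8 and 41.2 CPM in controls. There CXCL10 replicate 3 was far above all other libraries, and without it the log2 fold change was -0.10 in place of 0.16.

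The VPS34 lipid kinase complex contained the member with the lowest p-value. VPS34 itself, encoded by PIK3C3, and its membrane anchor PIK3R4 are shared by both forms of the complex, ATG14 directs it to autophagosome formation, and UVRAG to endosomes and autophagosome maturation. BECN1 (chromosome 17, 42810134 to 42833350, minus strand), which encodes the regulatory subunit Beclin 1, had 37.7, 40.3 and 44.1 CPM in CXCL10 replicates 1, 3 and 4, against 33.5, 34.5 and 17.8 CPM in control replicates 1, 3 and 4. All CXCL10 libraries lay above all controls, and control replicate 4 was far below the other 5 libraries. This gave 0.51 ± 0.21 as log2 fold change (SE, unadjusted p = 0.0291, adjusted p = 0.683 by edgeR), and 0.26 without control replicate 4 (unadjusted p = 0.0918). Exons on the opposite strand cover 17.1% of its exon length, and reads there were not counted.

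UVRAG (chromosome 11, 75815210 to 76144232, plus strand) was separated between the groups with and without control replicate 4. It had 17.9, 19.6 and 18.2 CPM in CXCL10 replicates 1, 3 and 4, against 14.1, 15.3 and 15.8 CPM in control replicates 1, 3 and 4. The gap between the groups was wider than the range within either one. Its log2 fold change was 0.30 ± 0.15 (SE, unadjusted p = 0.0597, adjusted p = 0.702 by edgeR), and 0.34 without control replicate 4 (unadjusted p = 0.048). Removing the length trend gave 0.22.

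The rest of the lipid kinase complex overlapped between the groups. PIK3C3 averaged 23.8 ± 5.57 CPM with CXCL10 and 23.3 ± 1.95 CPM in controls, and PIK3R4 19.5 ± 5.88 CPM with CXCL10 and 16.8 ± 1.17 CPM in controls. In both, CXCL10 replicate 3 was the highest library and CXCL10 replicate 1 the lowest. ATG14 averaged 18.7 ± 2.30 CPM with CXCL10 and 19.7 ± 1.63 CPM in controls, and AMBRA1, a Beclin 1 partner and ubiquitin ligase adaptor, 31.7 ± 1.69 CPM with CXCL10 and 28.4 ± 5.45 CPM in controls. Over the 6 genes the median log2 fold change was 0.19, with 5 above 0.

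**Figure D3:**
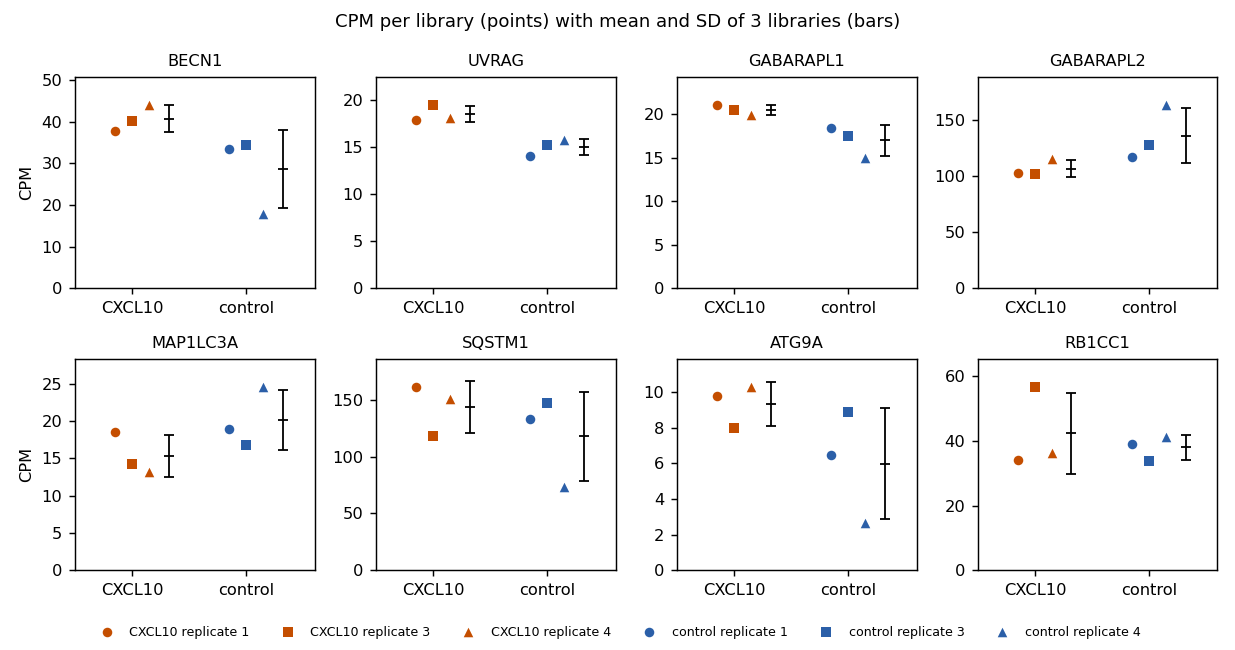
CPM in each library (points; orange for CXCL10, blue for control, shapes for replicate numbers) with the mean and SD of 3 libraries, for 8 autophagy genes. BECN1, UVRAG and GABARAPL1 are higher and GABARAPL2 lower in every CXCL10 library than in every control, and control replicate 4 has 17.8 CPM of BECN1, 73.0 CPM of SQSTM1 and 2.66 CPM of ATG9A.

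Genes of membrane supply and PI3P binding included ATG9A, which had the largest log2 fold change of the list. ATG9A (chromosome 2, 219219380 to 219229717, minus strand), which encodes a lipid scramblase carried on small vesicles, had 9.76, 7.96 and 10.3 CPM in CXCL10 replicates 1, 3 and 4, against 6.44, 8.86 and 2.66 CPM in control replicates 1, 3 and 4. Control replicate 3 lay inside the CXCL10 range, and control replicate 4 had 89 reads. This gave 0.63 ± 0.31 as log2 fold change (SE, unadjusted p = 0.0598, adjusted p = 0.702 by edgeR), 0.29 without control replicate 4 and 1.04 without control replicate 3 (unadjusted p = 0.00214).

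WIPI2, which binds PI3P and recruits ATG16L1 (chromosome 7, 5190196 to 5233840, plus strand), had 131, 108 and 119.8 CPM in CXCL10 replicates 1, 3 and 4, against 124, 124 and 109 CPM in control replicates 1, 3 and 4. Its log2 fold change was 0.0068, with a 95% interval from -0.27 to 0.28. WIPI1, its paralog, averaged 14.6 ± 3.07 CPM with CXCL10 and 11.6 ± 1.04 CPM in controls, with a log2 fold change of 0.33 ± 0.18 (SE, adjusted p = 0.712 by edgeR). Leaving out CXCL10 replicate 4 gave 0.16, and leaving out CXCL10 replicate 3 gave 0.47 (unadjusted p = 0.0188). The ratio of WIPI2 to WIPI1 per length was 3.56, 3.42 and 2.53 with CXCL10, against 3.73, 4.05 and 3.92 in controls, without overlap and without a test. Opposite-strand genes cover 28.1% of the exon length of WIPI1.

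The lipid-transfer genes ATG2A and ATG2B, whose products bridge the endoplasmic reticulum and the growing membrane, departed furthest from their usual ratio in CXCL10 replicate 3. ATG2A had 12.9, 9.74 and 13.0 CPM with CXCL10, against 12.1, 14.0 and 10.2 CPM in controls. ATG2B had 9.11, 18.1 and 10.4 CPM with CXCL10, against 10.6, 10.7 and 12.2 CPM in controls. CXCL10 replicate 3 was the lowest library for ATG2A and the highest for ATG2B, and there the ratio of ATG2A to ATG2B per length was 0.981, against 1.52 to 2.58 in the other 5 libraries.

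Conjugation genes differed little between the groups. None of the 10 had an unadjusted p under 0.05 or groups without overlap, and their log2 fold changes ran from -0.18 for ATG3 to 0.14 for ATG4C with a median of -0.013. Without control replicate 4 ATG3 was at -0.088 and ATG4C at 0.29, and without CXCL10 replicate 3 ATG4C was at 0.031. ATG3 (chromosome 3, 112532509 to 112562046, minus strand), the E2-like enzyme that passes ATG8 proteins to lipid, had 69.8, 87.995 and 77.7 CPM in CXCL10 replicates 1, 3 and 4, against 80.4, 86.8 and 100.1 CPM in control replicates 1, 3 and 4. CXCL10 replicate 3 lay above 2 of the controls. ATG7, the E1-like enzyme of both pathways, averaged 106 ± 9.58 CPM with CXCL10 and 107 ± 6.63 CPM in controls.

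The E3-like complex of ATG12, ATG5 and ATG16L1, which sets where lipidation takes place, overlapped between the groups for each gene. ATG5 averaged 65.2 ± 5.56 CPM with CXCL10 and 66.1 ± 4.88 CPM in controls, ATG12 43.5 ± 6.95 CPM with CXCL10 and 47.0 ± 6.38 CPM in controls, and ATG16L1 57.3 ± 8.10 CPM with CXCL10 and 55.9 ± 4.44 CPM in controls. ATG10, the E2-like enzyme of the ATG12 pathway, averaged 10.4 ± 1.503 CPM with CXCL10 and 11.4 ± 0.693 CPM in controls. The 95% intervals of these 4 log2 fold changes lay between -0.50 and 0.34.

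ATG4 proteases, which trim ATG8 proteins before conjugation and free them afterwards, were led by ATG4B. It averaged 64.6 ± 6.47 CPM with CXCL10 and 61.3 ± 8.66 CPM in controls. The others were lower, with 5.97 ± 1.70 CPM of ATG4A, 13.9 ± 1.996 CPM of ATG4C and 10.1 ± 0.955 CPM of ATG4D with CXCL10, against 5.59 ± 0.681, 12.7 ± 2.24 and 10.2 ± 1.76 CPM in controls. Per length ATG4B exceeded ATG4D 2.20 ± 0.315 fold with CXCL10 and 2.08 ± 0.115 fold in controls.

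Cargo receptors, which link ubiquitinated cargo to ATG8 proteins, overlapped between the groups without exception among the 5 measured. SQSTM1 (chromosome 5, 179806398 to 179838078, plus strand), which encodes p62, had 161, 118 and 151 CPM in CXCL10 replicates 1, 3 and 4, against 133, 147 and 73.0 CPM in control replicates 1, 3 and 4. The library with the lowest level was again control replicate 4. This gave 0.28 ± 0.21 as log2 fold change (SE, adjusted p = 0.786 by edgeR), 0.037 without that library and 0.49 without control replicate 3 (unadjusted p = 0.0367). Opposite-strand exons, mostly of MRNIP, cover 22.4% of its exon length.

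OPTN, the gene of optineurin, a receptor in the clearance of mitochondria and bacteria (chromosome 10, 13099449 to 13138308, plus strand), had 17.9, 22.6 and 18.8 CPM in CXCL10 replicates 1, 3 and 4, against 21.2, 23.7 and 25.4 CPM in control replicates 1, 3 and 4. CXCL10 replicate 3 lay within the control range. The fitted log2 fold change of OPTN was -0.25 ± 0.15 (SE, adjusted p = 0.753 by edgeR), and -0.35 without CXCL10 replicate 3 (unadjusted p = 0.0378). NBR1, a p62 partner, averaged 84.8 ± 13.2 CPM with CXCL10 and 81.8 ± 6.96 CPM in controls. TAX1BP1 averaged 77.6 ± 14.7 CPM with CXCL10 and 70.4 ± 2.80 CPM in controls. CALCOCO2, which encodes the receptor NDP52 for bacteria, averaged 55.2 ± 7.67 CPM with CXCL10 and 52.1 ± 3.40 CPM in controls. For these last 3 genes CXCL10 replicate 3 was the highest library.

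**Figure D4:**
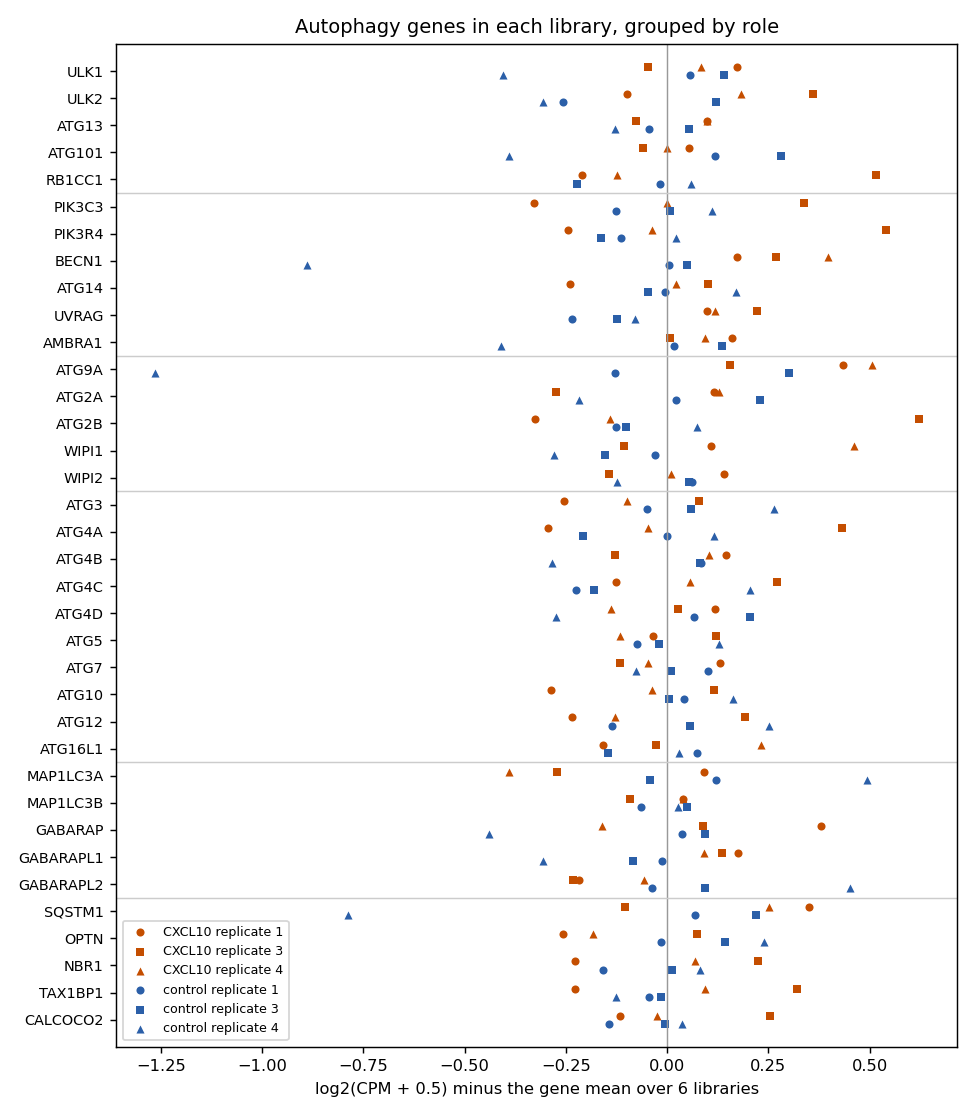
Log2(CPM + 0.5) of each autophagy gene minus its mean over the 6 libraries, one row per gene, with lines between the roles in the order start complex, lipid kinase complex, membrane supply and PI3P binding, conjugation, ATG8 proteins and receptors. Control replicate 4 reaches the lowest values of the plot in ATG9A, BECN1 and SQSTM1, and CXCL10 replicate 3 the highest in ATG2B, PIK3R4 and RB1CC1.

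The extreme values of these genes lay mostly in 3 libraries. Control replicate 4 was the lowest library for 13 of the 36 genes and the highest for 8, CXCL10 replicate 1 the lowest for 12 and the highest for 9, and CXCL10 replicate 3 the lowest for 5 and the highest for 11. Control replicate 4 was the lowest library for 29.3% and the highest for 25.8% of all genes, beside 36.1% and 22.2% of the members. For CXCL10 replicate 1 these shares were 21.0% and 17.4% of all genes, beside 33.3% and 25% of the members. For CXCL10 replicate 3 they were 19.5% and 25.5%, beside 13.9% and 30.6%. The SD of the members' deviations from their means was 0.36 on the log2 scale in control replicate 4 and 0.10 to 0.23 in the other 5 libraries, beside 0.36 and 0.17 to 0.26 for all genes. As a share of all reads the 36 genes took 0.169% ± 0.00627 with CXCL10 and 0.156% ± 0.00950 in controls (SD, n = 3 each), and control replicate 4 had the lowest share at 0.146%.

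The members' deviations in a library moved with the base composition of their transcripts. The longest coding transcript of each member ran from 34.8% GC for ATG4C to 64.8% for ATG4D. Across the 36 genes the deviation ran with GC at Spearman's rho of 0.73 in CXCL10 replicate 1, -0.67 in CXCL10 replicate 3 and -0.62 in control replicate 4. In CXCL10 replicate 4 and control replicates 1 and 3 it was 0.33, 0.62 and 0.56. Over 16395 genes with a known GC, rho was 0.49 in CXCL10 replicate 1, -0.51 in CXCL10 replicate 3, -0.061 in CXCL10 replicate 4, 0.34 in control replicate 1, 0.099 in control replicate 3 and -0.065 in control replicate 4. In each library rho was further from 0 over the members than over all genes, and in CXCL10 replicate 4 it had the opposite sign. The genes of a library share its RNA, preparation and depth, and deviations are taken from a mean over the same 6 libraries, so these are descriptions without a test. Fold changes themselves ran with GC at 0.076 and with transcript length at 0.13 over the 36 genes, beside -0.14 and 0.36 over all genes, and the part of base composition in the values above was not tested.

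**Figure D5:**
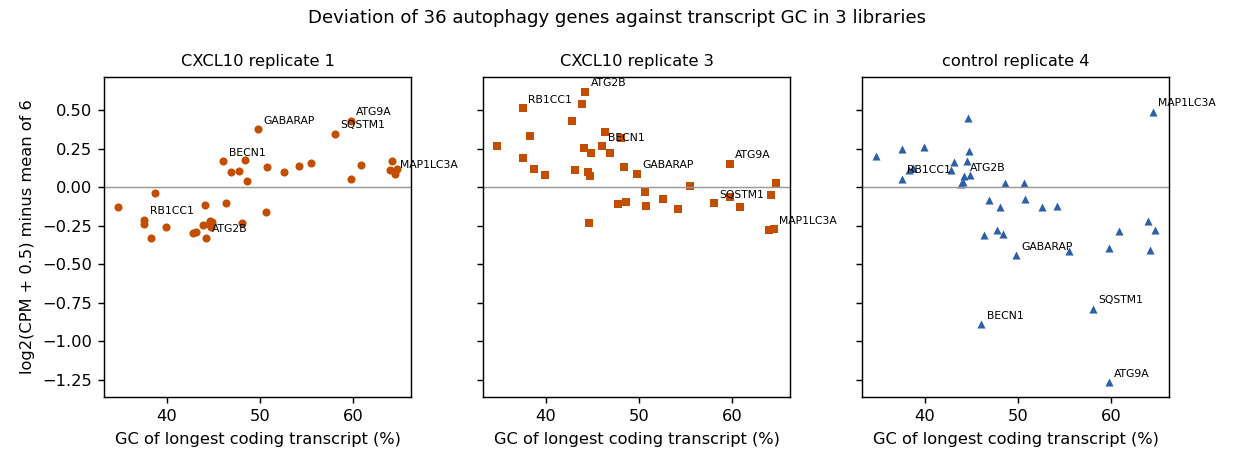
Deviation of each of the 36 autophagy genes (log2(CPM + 0.5) minus the mean of 6 libraries) against the GC percentage of its longest coding transcript, in CXCL10 replicates 1 and 3 and control replicate 4. GC-rich members lie above 0 in CXCL10 replicate 1 and mostly below 0 in the other 2 libraries, where MAP1LC3A in control replicate 4 is an exception.

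Promoters were searched for the E-box core CACGTG, which transcription factors of the TFEB family bind in autophagy and lysosome genes. RefSeq promoters (GRCh38.p14, 250 bases before to 50 after the start) were matched by symbol for 32 of the 36 members. The core, which reads the same on both strands, was present in 2 of the 32 (6.25%) and in 7.26% of all 35116 promoters. The longer form TCACGTGA, which contains the core, and that form with a further G before and C after it were present in 1 and 0 of the 32, and in 0.980% and 0.353% of all. The promoters that held it are shown with the matches in capitals, ATG3 at chr3:112561913-112562212 and ATG14 at chr14:55411781-55412080, both on the minus strand and printed in the direction of transcription.

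ATG3: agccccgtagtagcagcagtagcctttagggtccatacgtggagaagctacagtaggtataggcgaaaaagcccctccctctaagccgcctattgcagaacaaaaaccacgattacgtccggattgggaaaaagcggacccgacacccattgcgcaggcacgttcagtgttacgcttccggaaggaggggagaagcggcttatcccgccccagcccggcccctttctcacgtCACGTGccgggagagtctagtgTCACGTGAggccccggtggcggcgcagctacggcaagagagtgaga

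ATG14: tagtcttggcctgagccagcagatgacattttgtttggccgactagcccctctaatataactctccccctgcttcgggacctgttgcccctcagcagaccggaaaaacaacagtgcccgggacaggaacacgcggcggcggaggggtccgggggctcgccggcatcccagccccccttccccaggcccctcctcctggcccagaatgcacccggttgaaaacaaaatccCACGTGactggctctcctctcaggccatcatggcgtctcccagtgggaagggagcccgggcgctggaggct

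ATG3 holds the core at 2 places, one shortly before its start site and one after it as TCACGTGA, and ATG14 holds it once before the start site. Levels of the genes did not separate the groups, with log2 fold changes of -0.18 for ATG3 and -0.075 for ATG14.

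Other genes of the pathway, 67 in a list of upstream control, other core factors, autophagosome fusion and further receptors, gave no call either. Of these 64 were tested, 0 passed adjustment over all genes (lowest adjusted p = 0.683 by edgeR), and the median log2 fold change was 0.049 with 40 above 0. At an unadjusted p under 0.05 stood 3 of 64, or 4.69% beside 7.14% of all genes. The groups did not overlap for 4 higher genes, MTOR, ATG16L2, PRKAB1 and PLEKHM1, and 3 lower ones, TFEB, TEX264 and VPS18, which is 10.9% beside 12.2% of all genes. Without control replicate 4, 1 of the 64, DEPTOR, had an unadjusted p under 0.05, and 17.2% did not overlap, beside 18.4% of all genes. The log2 fold change of DEPTOR was then 0.89 (unadjusted p = 0.00439 by edgeR), and 0.56 with all libraries (unadjusted p = 0.0737). Of the 3 with an unadjusted p under 0.05, PLEKHM1, a lysosomal adaptor for fusion, was on the higher side, with 5.61, 5.82 and 7.15 CPM with CXCL10, against 5.25, 4.60 and 2.48 CPM in controls, and a log2 fold change of 0.59 ± 0.25 (SE, adjusted p = 0.683 by edgeR).

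The other two, TFEB and TEX264, were on the lower side. TFEB, the master transcription factor of lysosome and autophagy genes, had 46.4, 38.2 and 39.9 CPM in CXCL10 replicates 1, 3 and 4, against 49.6, 47.4 and 59.0 CPM in control replicates 1, 3 and 4, a log2 fold change of -0.33 ± 0.14 (SE, adjusted p = 0.684 by edgeR). TEX264, a receptor for degradation of the endoplasmic reticulum, had 279.6, 227 and 247 CPM with CXCL10, against 301, 287 and 335 CPM in controls, and a log2 fold change of -0.29 ± 0.13 (SE, adjusted p = 0.684 by edgeR). All 3 genes separated the groups, and control replicate 4 was the most extreme control in each. Without it their log2 fold changes were 0.33 for PLEKHM1, -0.22 for TFEB and -0.22 for TEX264. The unadjusted p-values were then 0.114, 0.15 and 0.111 by edgeR.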

How the data were processed

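For every library the authors deposited 1 table of unnormalized read counts by gene name. Per the file headers, featureCounts 2.0.6 counted reads over GENCODE 30 exons. Trim Galore, STAR and Subread with build hg38 are named in the submitters' processing notes, and their versions are not given here. Per the labels, the kit marks strand, but the command line in the file headers sets no strand. It also counts both mates of a pair as separate reads and leaves out reads over several genes or mapped to several places. A gene with 0 reads may have up to 3 fragments, or 6 reads, which is 0.146 to 0.173 CPM and covers counting error only.

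The labels gave the groups. The test was edgeR 4.0.16, run in R 4.3.3 (filterByExpr, TMM factors, quasi-likelihood fit with group as the only term over 6 libraries, Benjamini-Hochberg adjustment over 16531 genes, threshold 0.05). CPM values use TMM-scaled totals of the filtered genes. Standard errors come from the fold change and its F statistic, and 95% intervals from these with the fit's degrees of freedom. Every member is described. Values in each library are given for the lowest p and the highest level per length of each role, for members with an unadjusted p under 0.05, and for further members chosen after their values were seen. DESeq2 1.42.0 and limma 3.58.1 were alternatives. Libraries differed from each other by more than sampling noise. The members, lists and tests were chosen with earlier results of these data known. GC and coding sequences came from GENCODE 29, which is on the same genome build, and promoters from RefSeq.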

Additional observations from a re-analysis of the deposited data

How the results depend on the processing

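No autophagy gene passed an adjusted p of 0.05 under 9 other settings of the processing or on leaving out each of the 6 libraries. In the main fit 0 genes were called, also at a threshold of 0.1 (lowest adjusted p = 0.683 by edgeR). The number of genes called stayed at 0 except with no filter on low counts. There it was 137, with 2049 genes at an unadjusted p under 0.05. Leaving out a library gave 626 to 2103 genes at that unadjusted level (626 without CXCL10 replicate 3, 649 without CXCL10 replicate 4 or control replicate 4, 2103 without CXCL10 replicate 1). The count of autophagy genes there was 4 of 36 with library size alone, with no filter, with DESeq2 and with the replicate block. Among all genes it was 1151 of 16531, 2049 of 30869, 1211 of 16531 and 1323 of 16531 in these settings. On leaving out a library, 1 to 5 of the 36 stood there. Without control replicate 3 it was 5, beside 1601 of 16954 genes. Without control replicate 4 or CXCL10 replicate 4 it was 1, beside 649 of 17116 and 649 of 17119 genes. Members without overlap numbered 4 to 13 on leaving out a library: 13 (36.1%) without CXCL10 replicate 3, beside 22.8% of all genes, 8 (22.2%) without control replicate 3, beside 23.5%, and 7 (19.4%) without CXCL10 replicate 1, beside 32.5%. The members' median was 0.15 by library size alone, 0.013 with the length trend removed and 0.020 to 0.12 on leaving out a library. For the linked genes it was 0.13, -0.013 and 0.0088 to 0.071. Linked genes at an unadjusted p under 0.05 numbered 0 to 6 on leaving out a library (0 without CXCL10 replicate 3 or 4, 6 without CXCL10 replicate 1). All genes at that level were 626 of 16860 without CXCL10 replicate 3, 649 of 17119 without CXCL10 replicate 4 and 2103 of 17130 without CXCL10 replicate 1. Library size alone put the median of all genes at 0.10.

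Direction held for 18 of the 36 members in all settings where they were tested, and turned for 18. GABARAP, among those that held, was filtered out with counts halved and with at least 1 CPM required in 3 libraries. By library size alone the values that turned were ATG101 0.037, ATG14 0.0092, ATG2A 0.046, ATG4D 0.066, ATG5 0.062, ATG7 0.055 and MAP1LC3B 0.070. With the length trend removed they were PIK3C3 -0.11, WIPI2 -0.078, ATG4D 0.086, ATG16L1 -0.024, NBR1 -0.046 and CALCOCO2 -0.013. ATG4D was 0.0013 by limma-voom and 0.0036 with the replicate block. On leaving out a library the ranges were ULK1 -0.022 to 0.25, ATG101 -0.21 to 0.13, RB1CC1 -0.10 to 0.29, PIK3C3 -0.15 to 0.18, PIK3R4 -0.049 to 0.37, ATG14 -0.14 to 0.021, ATG2A -0.13 to 0.11, ATG2B -0.18 to 0.35, WIPI2 -0.065 to 0.085, ATG4A -0.15 to 0.26, ATG4B -0.033 to 0.16, ATG4D -0.13 to 0.12, ATG5 -0.081 to 0.043, ATG7 -0.095 to 0.041, ATG16L1 -0.082 to 0.12, MAP1LC3B -0.042 to 0.042, NBR1 -0.047 to 0.17 and CALCOCO2 -0.027 to 0.16. The cause was not tested. Same-numbered libraries did not deviate together (correlations 0.026, 0.019 and -0.051), and 1 of 3 CXCL10 libraries correlated best with the control of its own number. Deviations from means of so few libraries cannot decide whether the numbers pair the samples. With all counts halved, ULK2, at 68 to 152 reads, gave 0.347 beside 0.351 with all reads.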
